A study of Mus musculus with 4 samples.

Results

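Livers of YAP knockout (YAP-KO) mice differed between 0 h and 24 h after an acetaminophen overdose at fewer genes than wildtype livers, in both directions. The subject here is the gap between those responses, gene by gene, called the difference of responses: the 24 h minus 0 h difference in YAP-KO, minus the same difference in wildtype, in log2 units as deposited, where 1 unit is 2-fold. It is identical to the YAP-KO minus wildtype gap at 24 h minus the gap at 0 h. Its members are the 18500 of 30829 named genes whose mean level over the 4 arrays reached the 40th percentile (4.3225), each read from the brightest probe set that carries that gene alone. A gene was called shared when it differed 2-fold or more in the same direction in both genotypes, wildtype-only or YAP-KO-only when it did so in 1 genotype, and opposite when it did so in both with different signs.

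Gene expression was measured in liver lysates of male mice on 4 single-channel arrays, 1 for each combination of genotype and time, and each array held RNA pooled from 3 mice. The wildtype mice carried a floxed Yap1 gene, and the YAP-KO mice are labelled as YAP knockout. The 0 h mice were fasted, and the 24 h mice had received 300 mg/kg acetaminophen (APAP), a drug that hepatocytes turn into a reactive metabolite which depletes glutathione and kills the cells around the central vein. Which exons were deleted, by which Cre driver and in which cells is not given in the sources used here. All 24 h mice had been dosed, so the overdose cannot be told apart from time, handling and food intake, and "response" stands for the whole difference between 24 h and 0 h. With 1 array per group no difference has a replicate error or a test, the spread between mice is hidden in the pools, and every value below describes these 4 arrays.

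YAP is a transcriptional coactivator held in the cytoplasm by the kinases of the Hippo pathway; once released it enters the nucleus, binds TEAD factors and switches on genes of growth, the cytoskeleton and the extracellular matrix. In adult liver it is more active in biliary cells than in hepatocytes, and it is known to be activated in hepatocytes by injury and by partial hepatectomy. Liver regeneration after acetaminophen proceeds through inflammation, clearance of dead cells and division of the surviving hepatocytes, while many hepatocyte functions are turned down for a time.

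The arrays had medians of 4.32 to 4.47 over all probe sets. A value within 0.01 of an array's highest value was treated as saturated, which held for 68 genes on all arrays, among them the hepatocyte markers Alb, Ttr and Apoa1, so the labelled tissue carried its defining transcripts. Yap1 itself had levels of 7.54 (wildtype) and 6.31 (YAP-KO) before the overdose, then 8.24 and 6.01. The YAP-KO arrays were the lower at both times, and the probe set may read transcript that remains or transcript of cells without deletion. Its difference of responses was -1.0, from 0.70 in wildtype and -0.30 in YAP-KO.

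The class sizes give the scale of the gap. In wildtype 2341 genes (12.7% of those measured) were 2-fold or more higher at 24 h and 1087 (5.88%) lower, against 876 (4.74%) and 410 (2.22%) in YAP-KO. Of the 3917 genes at 2-fold in either genotype, 2631 were wildtype-only, 769 shared, 489 YAP-KO-only and 28 opposite. A wildtype-only gene need not have differed much from its YAP-KO response, because a gene just above 2-fold in wildtype and just below it in YAP-KO falls into that class too. For this reason each class was also read by its difference of responses, which reached 2-fold higher in YAP-KO for 1047 of all genes (5.66%) and 2-fold lower for 1386 (7.49%). It reached 4-fold for 173 and 281, and 8-fold for 35 and 101. Which direction held more genes at 2-fold depended on the scaling, with 1209 higher and 1182 lower after quantile normalization. The median over all genes was -0.01, with quartiles of -0.37 and 0.33.

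Of the wildtype-only genes 1559 (59.3%) passed 2-fold in the difference of responses and 1072 did not. The share was 33.7% of the YAP-KO-only genes (165) and 30.0% of the shared genes (231). Shared genes were mostly smaller responses in YAP-KO: the YAP-KO difference was the smaller in 606 of 769, with medians of 1.67 in wildtype and 1.34 in YAP-KO for the shared higher genes and -2.44 and -1.41 for the shared lower genes. In the wildtype-only classes YAP-KO stayed under 1.5-fold for 1182 of 1777 higher genes and 604 of 854 lower genes. Another 450 genes passed 2-fold in the difference while passing it in neither genotype.

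**Figure D1:**
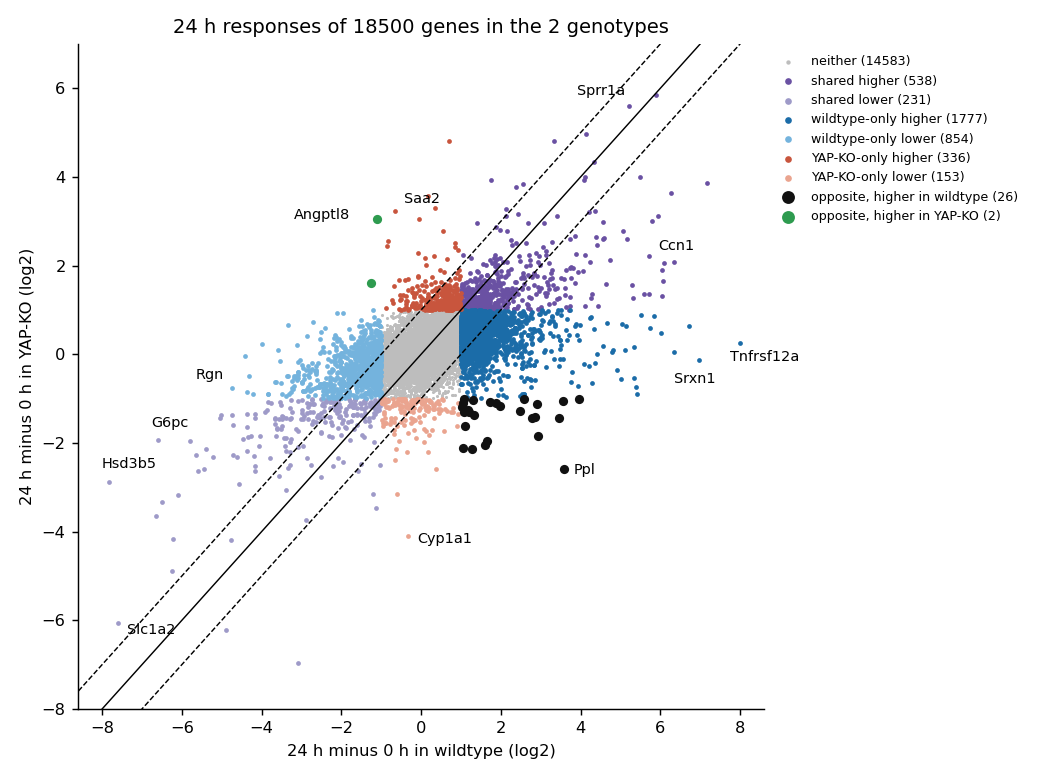
Each point is 1 of 18500 genes, with its 24 h minus 0 h difference in wildtype on the horizontal axis and in YAP-KO on the vertical axis, both in log2 units and coloured by class. The solid line marks equal responses and the dashed lines a 2-fold difference of responses. The wildtype-only genes extend along the horizontal axis to 8.01 (Tnfrsf12a) while YAP-KO stays between -1 and 1.

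**Figure D2:**
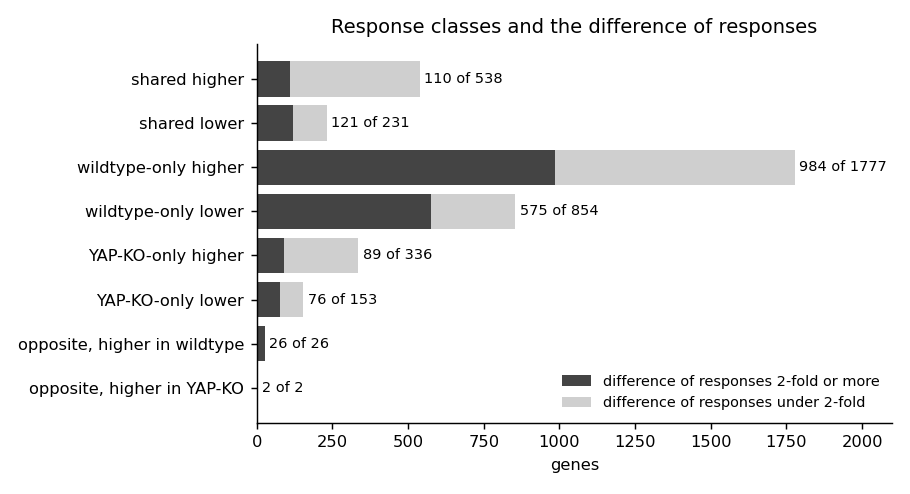
Bars give the number of genes in each response class, and the dark part gives those whose difference of responses was 2-fold or more. The dark part is 984 of 1777 wildtype-only higher genes and 575 of 854 wildtype-only lower genes, against 110 of 538 shared higher genes.

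Where the difference arose was read from the 2 gaps between genotypes. Among the 1386 genes with a lower response in YAP-KO, wildtype was higher at 24 h than at 0 h in 1352, YAP-KO was under 1.5-fold in 887 (64.0%), it moved the same way by less in 269 and the opposite way in 98. The gap at 24 h was the larger part for 1189 (85.8%), while for 193 it was the gap already present at 0 h. Among the 1047 genes with a higher response in YAP-KO, wildtype was lower at 24 h in 1002, YAP-KO was under 1.5-fold in 582 (55.6%), and 233 moved the same way by less. Here the gap at 0 h was the larger part for 249, and against the mean of both 0 h arrays as one baseline 598 genes in place of 1047 passed 2-fold. Neither gap alone reached 2-fold in 430 of the 1386 genes and 450 of the 1047, and both gaps did in 53 and 19.

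**Figure D3:**
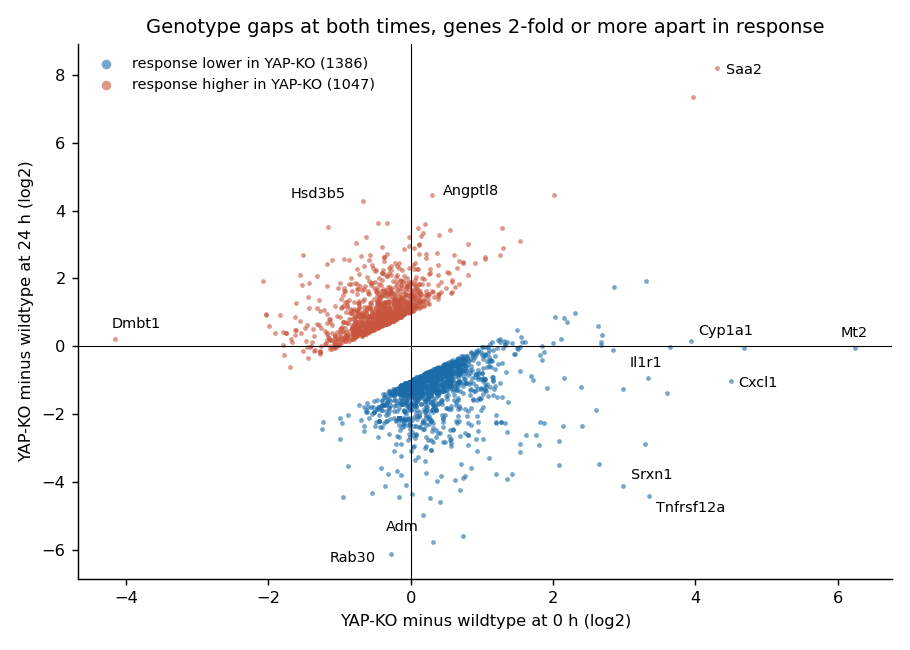
Each point is a gene 2-fold or more apart in response, with the YAP-KO minus wildtype gap at 0 h on the horizontal axis and at 24 h on the vertical axis (log2). Rab30 and Adm lie near 0 on the horizontal axis, Tnfrsf12a and Srxn1 have a gap at both times with different signs, and Il1r1 has a gap at 0 h (3.64) and none at 24 h (-0.01). Mt2 is saturated on both 24 h arrays, so its 24 h gap has no value.

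The lowest difference of responses was that of Tnfrsf12a, which encodes Fn14, the receptor of the cytokine TWEAK. Levels are given as wildtype and YAP-KO at 0 h, then wildtype and YAP-KO at 24 h, with the difference of responses in brackets. The 0 h levels of Tnfrsf12a were 6.02 (wildtype) and 9.37 (YAP-KO), and its 24 h levels 14.03 and 9.62. Wildtype was thus higher by 8.01 at 24 h and YAP-KO by 0.25, a difference of responses of -7.76. YAP-KO lay above wildtype before the overdose (3.35) and below it after (-4.41), with its own 2 arrays close together. The same form held for Srxn1, sulfiredoxin, at 8.05 and 11.04 at 0 h against 15.03 and 10.91 at 24 h (-7.11), for the tubulin gene Tubb2a at 10.41 and 13.06 against 15.81 and 12.33 (-6.13), and for Chka, choline kinase, at 8.38 and 10.46 against 13.40 and 9.91 (-5.57). The neutrophil chemokine gene Cxcl1 was at 6.29 and 10.79 at 0 h and at 12.31 and 11.28 at 24 h (-5.53): here the gap at 0 h was 4.50 and the gap at 24 h only -1.03. A baseline taken as the mean of both 0 h arrays leaves the gap at 24 h alone, so values of this kind are smaller under it.

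Others of the 10 lowest started from like levels. Adm, the vasodilator peptide adrenomedullin, started at 4.48 (wildtype) and 4.79 (YAP-KO), near the low end of the kept genes, and reached 11.21 and 5.43 (-6.09). Rab30, a small GTPase of the Golgi, was at 7.89 and 7.62, then 13.23 and 7.09 (-5.87). Cidec, a protein that fuses lipid droplets, was at 5.57 and 6.30, then 10.99 and 5.40 (-6.32). All of these were higher at 24 h in wildtype by over 5 units, with YAP-KO within 1 unit of its own 0 h array. Ppl, periplakin, a linker of intermediate filaments to the membrane, had opposite signs: 6.45 (wildtype) and 9.74 (YAP-KO), then 10.04 and 7.16 (-6.17).

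**Figure D4:**
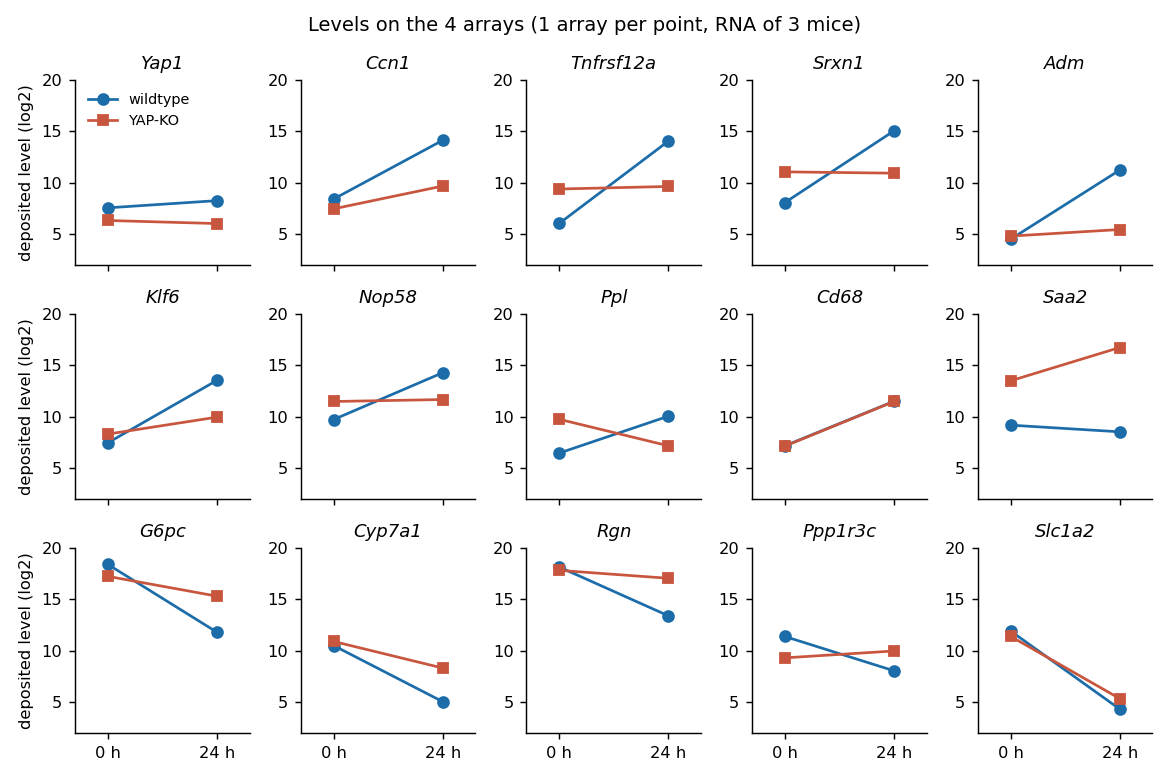
Deposited log2 levels of 15 genes at 0 h and 24 h, 1 array per point, with wildtype as circles and YAP-KO as squares. Tnfrsf12a and Srxn1 cross between the times, Cd68 is superposed, and G6pc, Cyp7a1 and Rgn are lower at 24 h in wildtype than in YAP-KO.

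The genes most used as readouts of YAP had reduced responses that were not lost. Ccn1, a secreted matricellular protein, started at 8.39 (wildtype) and 7.44 (YAP-KO) and reached 14.11 and 9.66, so both genotypes were higher at 24 h, by 5.72 and 2.22 (difference -3.50). Ccn2, its relative CTGF, read 5.73 and 5.79, then 9.48 and 7.75 (-1.79). Ankrd1, an ankyrin repeat protein of the nucleus and sarcomere, read 4.78 and 5.01, then 9.35 and 7.99 (-1.59). All 3 were shared higher genes, with the YAP-KO array below the wildtype array at 24 h. Wwtr1, which encodes the YAP paralog TAZ, read 5.75 and 5.82, then 6.73 and 6.35, under 2-fold in both genotypes (-0.45).

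Of 22 measured genes in a list of YAP/TAZ targets, 11 had a response lower in YAP-KO by 1.5-fold or more and 1 higher, with a median of -0.56, beside 16.4% and 13.8% of all genes in these directions and the median of -0.01. The same shares of all genes stand beside the counts of every list below. At 2-fold they were 7.49% lower and 5.66% higher. Ajuba, a LIM protein that itself feeds back on the pathway, was at 5.04 and 5.01, then 8.35 and 5.76 (-2.56). The TEAD factor gene Tead1 was at 6.12 and 6.68, then 8.70 and 6.84 (-2.42), and F3, tissue factor, was at 5.15 and 4.86, then 7.29 and 5.16 (-1.84). The kinase gene Nuak2 went the other way, at 6.46 and 6.53, then 6.43 and 7.10 (0.60). The list median of the gap was 0.03 at 0 h and -0.535 at 24 h, so most of the gap on this list lay at 24 h.

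Because YAP reaches DNA through TEAD factors, the promoters of the YAP readouts Ccn1 and Ankrd1 are shown. The promoters searched held none of Ccn2. Each is the 250 bases before the gene start (RefSeq, GRCm38.p6, gene strand). GGAATG, the letters searched for TEAD, or its reverse complement is in capitals. The Ccn1 promoter lies at chr3:145649986-145650235 on the minus strand and that of Ankrd1 at chr19:36119845-36120094 on the minus strand.
Ccn1: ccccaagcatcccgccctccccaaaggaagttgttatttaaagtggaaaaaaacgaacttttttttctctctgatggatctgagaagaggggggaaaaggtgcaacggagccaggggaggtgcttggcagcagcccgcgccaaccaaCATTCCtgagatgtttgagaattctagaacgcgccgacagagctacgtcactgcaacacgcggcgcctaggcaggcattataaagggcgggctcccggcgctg
Ankrd1: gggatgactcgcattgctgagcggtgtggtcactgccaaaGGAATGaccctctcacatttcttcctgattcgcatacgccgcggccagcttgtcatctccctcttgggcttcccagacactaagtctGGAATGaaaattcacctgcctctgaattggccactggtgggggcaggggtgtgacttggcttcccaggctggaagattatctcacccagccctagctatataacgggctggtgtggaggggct
The Ccn1 match spans bases 103 to 98 before the start, and the 2 Ankrd1 matches span bases 210 to 205 and 123 to 118. Searched on both strands in windows of 300 bases (250 before to 50 after the start), the letters GGAATG were in 14.7% of 32851 promoters, in 12.7% of the 13639 promoters of genes kept here, in 11.7% of those of wildtype-only higher genes and in 12.4% of those of shared higher genes. The share was 20.5% for shared lower genes (45 of 219 promoters) and 11.6% for all genes with a response lower by 2-fold in YAP-KO. A match of 6 letters is a description of the sequence and not a binding site.

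Transcription factors of the immediate early response, which cells switch on within minutes of growth factor or stress signals, had larger responses in wildtype than in YAP-KO. Of 14 measured, 11 had a response lower in YAP-KO by 1.5-fold and none a higher one (median -1.47, from 1.89 in wildtype and 0.04 in YAP-KO). Klf6, a zinc finger factor, read 7.45 and 8.30, then 13.53 and 9.95 (-4.43). Myc, which drives growth and ribosome production, read 5.49 and 7.02, then 9.26 and 6.39 (-4.40). Egr1 read 6.13 and 7.08, then 8.79 and 6.55 (-3.19), and Jun, a subunit of AP-1, 5.44 and 6.50, then 9.29 and 8.10 (-2.25). For these 4 genes the YAP-KO array was above wildtype at 0 h and below it at 24 h, and Klf6 and Jun were 2-fold or more higher at 24 h in YAP-KO too (1.65 and 1.60).

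The dual specificity phosphatases and Sprouty proteins that switch MAP kinases off again are themselves switched on by them. On 12 measured genes of this feedback list, 9 responses were lower in YAP-KO by 1.5-fold and none higher (median -1.17). Dusp5 was at 4.90 and 5.07, then 10.63 and 5.66 (-5.14), Dusp6, the ERK phosphatase, at 8.03 and 8.57, then 11.30 and 8.64 (-3.20), and Dusp1 at 11.03 and 10.80, then 12.96 and 9.88 (-2.85). Of 8 measured EGF and HGF ligands and receptors 4 were lower and 1 higher (median -0.715). The ligands were the lower ones: Btc read 6.19 and 6.60, then 8.92 and 6.35 (-2.98), and Hbegf 4.50 and 4.59, then 7.04 and 4.91 (-2.22). Of the receptors, Erbb3 read 11.75 and 11.86 and was then lower, at 9.0 and 10.83 (1.72). In the TNF receptor family 6 of 11 were lower and 1 higher (median -0.63), among them Tnfrsf1a, the main TNF receptor of hepatocytes, at 8.15 and 9.60, then 9.67 and 9.44 (-1.68).

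Genes that build ribosomes had the most uniform shift of the growth lists. Of 26 measured ribosome biogenesis genes, 24 had a response lower in YAP-KO by 1.5-fold, 18 by 2-fold, and none a higher one (median -1.24, range -4.37 to -0.17). Wildtype had a median of 1.75 and YAP-KO of 0.335. Nop58, a core protein of the small nucleolar particles that guide methylation of ribosomal RNA, was at 9.71 and 11.47, then 14.27 and 11.66 (-4.37). The nucleolar helicase gene Ddx21 was at 9.21 and 10.02, then 12.56 and 10.65 (-2.72), and Ncl, nucleolin, at 11.20 and 11.12, then 14.42 and 12.26 (-2.08). Both genotypes were higher at 24 h on Ncl, and only wildtype by 2-fold or more on Nop58 and Ddx21. Proteasome subunits shifted by less: 11 of 30 were lower and none higher at 1.5-fold (median -0.405), led by Psmd3 at 8.13 and 8.49, then 9.28 and 8.65 (-0.99).

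Cell cycle lists had medians of the difference of responses nearer to that of all genes than the EGF and HGF list. Of 15 G1/S and replication genes 3 responses were lower and 1 higher (median -0.17), shares near those of all genes. The list was higher at 24 h by medians of 1.02 in wildtype and 0.58 in YAP-KO. Ccnd1 and Mcm7 had no probe set of their own. Rrm2, the ribonucleotide reductase subunit that supplies DNA synthesis, was at 5.67 and 5.63, then 6.85 and 4.98 (-1.83), while Mcm3, a helicase subunit, was at 5.25 and 5.39, then 6.38 and 5.97 (-0.55). Of 18 G2/M genes only 9 reached the filter level, and none of these passed 1.5-fold (median 0.28). The 4 arrays had means of 4.65 to 4.80 on these 9 genes, close to the filter level, so a difference in mitotic genes was not detectable at these levels. Among 11 p53 targets 4 were lower and 1 higher (median -0.26). The cell cycle inhibitor gene Cdkn1a (p21) was already higher in YAP-KO before the overdose, at 8.70 and 12.30 at 0 h, 14.54 and 13.16 at 24 h (-4.98).

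NRF2 is the factor that answers electrophiles such as the acetaminophen metabolite, and its targets restore glutathione and reduce oxidised proteins. Of 16 measured NRF2 targets 11 had a response lower in YAP-KO, each by 2-fold or more, and 2 a higher one (median -1.57, from 1.51 in wildtype and -0.14 in YAP-KO). Gclc, the rate-limiting enzyme of glutathione synthesis, read 15.70 (wildtype) and 16.63 (YAP-KO), then 18.61 and 15.51 (-4.03), an opposite response. Txnrd1, thioredoxin reductase, read 10.23 and 11.04, then 13.68 and 10.78 (-3.71). Hmox1, heme oxygenase, read 7.39 and 8.40, then 12.68 and 9.96 (-3.73), and Nqo1, quinone reductase, 6.21 and 6.50, then 10.64 and 7.59 (-3.34), so these were higher at 24 h in YAP-KO too. The cystine transporter gene Slc7a11 was below the filter level at 0 h in both genotypes (4.26 and 4.20) and read 9.57 and 5.47 at 24 h (-4.04). Against the list, Gstm3 was lower at 24 h in both, at 14.19 and 15.09, then 10.75 and 13.20 (1.55).

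Srxn1 led this list, and its promoter is shown because NRF2 and AP-1 sites share letters. The window is the 250 bases before the start at chr2:152105274-152105523 on the plus strand (RefSeq, GRCm38.p6), with matches to TGANTCA, the letters searched for AP-1, in capitals.
Srxn1: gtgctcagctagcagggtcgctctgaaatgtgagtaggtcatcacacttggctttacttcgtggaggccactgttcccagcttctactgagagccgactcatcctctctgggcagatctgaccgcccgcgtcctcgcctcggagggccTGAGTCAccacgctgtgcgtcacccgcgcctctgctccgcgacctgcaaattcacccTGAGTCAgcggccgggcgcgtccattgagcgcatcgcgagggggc
The matches span bases 102 to 96 and 45 to 39 before the start. In windows of 300 bases TGANTCA was in 7.81% of all 32851 promoters, in 5.93% of those of genes kept, in 6.44% for wildtype-only higher genes and in 10.3% (22 of 214) for genes with a response 4-fold or more lower in YAP-KO. The looser antioxidant response core TGANNNNGC, which can overlap an AP-1 match, was in 41.3% of all promoters and in 40.7% of those with a response lower by 2-fold. The hypoxia letters ACGTG were in 24.3% of the promoters of genes kept and in 29.2% of those with a response lower by 2-fold, but also in 33.8% (48 of 142) for YAP-KO-only higher genes. The E-box CACGTG, which contains ACGTG, was in 9.41% and 11.8% of the same sets.

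The remaining stress lists split. Metallothionein and zinc genes had a median of -0.92 without Mt2. Of all 6 genes 4 responses read lower and 1 higher, with Mt1 and Mt2 counted as lower. Mt1, a metal-binding protein made in stressed hepatocytes, was at 13.60 (wildtype) and 18.29 (YAP-KO), then 18.39 and 18.34 (-4.74). Its YAP-KO response (0.05) and its 24 h gap (-0.05) equalled those read for the saturated Mt2. Mt1 may thus be at a plateau below the highest value on these arrays. If so, its YAP-KO response, its 24 h gap and the value of -4.74 cannot be read. Mt2 was 13.58 in wildtype at 0 h and saturated on the other 3 arrays (19.83 to 19.93): wildtype was higher by at least 6.35, and no value can be given for YAP-KO or for the difference of responses. Hypoxia and glycolysis genes had 12 of 20 responses lower and none higher (median -0.70). The glucose transporter gene Slc2a1 was at 7.04 and 7.31, then 13.09 and 8.62 (-4.74), Hilpda, an inhibitor of triglyceride breakdown, at 5.0 and 5.41, then 10.11 and 5.51 (-5.01), and Pkm, the pyruvate kinase of growing cells, at 5.98 and 6.15, then 10.72 and 8.28 (-2.61). On these 3 genes the genotypes lay within 0.41 of each other at 0 h.

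Integrated and ER stress genes went both ways, 5 lower and 5 higher of 16 (median -0.24). Sdf2l1, of protein folding in the ER, was at 9.01 and 9.82, then 9.57 and 12.60 (2.22), while the ER chaperone gene Hspa5 (-0.25) and its partner Dnajb9 (-0.73) had responses as large or larger in wildtype. Derl3, of ER-associated degradation, is outside the list and was a YAP-KO-only higher gene, at 5.34 and 5.49, then 5.29 and 8.54 (3.10). Ddit3 (CHOP), a death-linked factor of ER stress, was higher at 24 h in both genotypes, at 7.23 and 7.33, then 8.63 and 10.28 (1.55). Atf4, the factor of the amino acid response, had the smaller response in YAP-KO, at 7.12 and 7.42, then 9.16 and 8.26 (-1.20). Of 9 heat shock genes 2 were lower and 1 higher (median -0.23). The inducible Hspa1a was higher at 24 h in both, at 5.18 and 5.46, then 7.62 and 8.62 (0.72), and the chaperone gene Hsp90aa1 was at 15.19 and 16.53, then 16.70 and 15.94 (-2.10).

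The cytoskeleton lists were, by their medians, higher at 24 h in wildtype and less so in YAP-KO. On the keratin and cornified envelope list 9 of 15 genes were lower, each by 2-fold, and none higher (median -1.51, from 2.88 in wildtype and 1.03 in YAP-KO). The list also holds annexin, S100 and transglutaminase genes, some of them among these 9. Its median was the value of the annexin gene Anxa5. Krt8 and Krt18, the keratin pair of hepatocytes, read 12.47 and 14.34, then 18.51 and 16.25 (-4.13), and 11.90 and 13.72, then 18.00 and 15.77 (-4.05). Both genotypes were higher at 24 h on both genes. Ivl, involucrin, was near or below the filter level on all arrays (4.0 to 4.37) except wildtype at 24 h (8.45). Only through that array did it pass the filter and come to be counted among the 9 lower genes. Krt7 and Krt19, of biliary cells, stayed between 4.30 and 4.56 on all arrays. On the list of the actin cytoskeleton and targets of the factor SRF 13 of 21 genes were lower and none higher (median -0.85). That list also holds tubulin genes and vimentin. Its lowest value was that of the tubulin gene Tubb6, at 5.59 and 7.73, then 10.72 and 8.37 (-4.49). Cytoplasmic actin Actg1 was at 10.50 and 11.58, then 15.66 and 14.19 (-2.55), and vinculin Vcl at 9.61 and 9.97, then 12.41 and 10.54 (-2.23). Vimentin, Vim, was alike in both, at 7.60 and 7.70, then 9.98 and 10.20 (0.12).

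On the other side, functions of mature hepatocytes were lower at 24 h in wildtype and less so in YAP-KO. Bile acid synthesis and transport had the highest list median (1.93): 16 of 22 responses were higher in YAP-KO, all 16 by 2-fold, and 2 were lower, beside 13.8% and 16.4% of all genes at 1.5-fold. Cyp7a1, whose enzyme sets the rate of making bile acids from cholesterol, read 10.50 (wildtype) and 10.90 (YAP-KO), then 5.04 and 8.31 (2.87). The export pump gene Abcb11 read 15.63 and 15.47, then 11.29 and 13.60 (2.47), and the uptake transporter gene Slco1b2 17.58 and 16.93, then 13.21 and 15.59 (3.03). These 3 were lower at 24 h in both genotypes, by more in wildtype. The bile acid receptor FXR, Nr1h4, read 12.52 and 12.30, then 10.10 and 11.55 (1.67), and its target Nr0b2 (SHP) 8.32 and 8.54, then 6.22 and 8.83 (2.39). Abcc3, the basolateral exporter, went against the list, at 12.89 and 12.74, then 12.99 and 11.55 (-1.29).

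Amino acid breakdown followed the same form, with 14 of 19 responses higher in YAP-KO and none lower (median 1.31). These 14 included Tat and Cps1, saturated and close to the highest value on all arrays but wildtype at 24 h. Kynu, kynureninase of the tryptophan pathway, was at 14.39 and 13.45, then 10.02 and 12.59 (3.51), and Hal, histidase, at 14.80 and 14.31, then 10.64 and 12.88 (2.73). Among gluconeogenesis and glycogen genes 8 of 14 were higher and 1 lower (median 0.845). G6pc, glucose-6-phosphatase, read 18.39 and 17.23, then 11.79 and 15.30 (4.67), and Pck1, which starts gluconeogenesis, 17.58 and 16.87, then 15.15 and 16.92 (2.48). The glycogen-targeting subunits of protein phosphatase 1 were lower in YAP-KO at 0 h and higher at 24 h: Ppp1r3b read 12.04 and 10.53, then 8.05 and 10.75 (4.21), and Ppp1r3c 11.38 and 9.30, then 8.04 and 9.97 (4.01). Food intake in the 24 h was not given in the sources used here and bears on these genes, and its part was not tested.

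The pericentral and periportal lists differed in their medians. Pericentral genes, of the zone that makes the toxic metabolite, had 9 of 14 responses higher and none lower (median 1.215), while periportal genes had 4 higher and 4 lower of 12 (median -0.01). Periportal values ran from -2.75 (Cdh1) to 2.73 (Hal), and the periportal Pck1 was also higher (2.48). Rgn, regucalcin, was at 18.14 and 17.81, then 13.39 and 17.04 (3.98), Cyp1a2 at 18.10 and 18.65, then 12.89 and 16.32 (2.88), and Gulo, of vitamin C synthesis, at 14.94 and 15.05, then 11.86 and 14.59 (2.62). Genes of the innermost pericentral layer were much lower at 24 h in both genotypes: the glutamate transporter gene Slc1a2 (2 probe sets) was at 11.92 and 11.40, then 4.32 and 5.34 (1.54, where the wildtype 24 h level is at the filter level), and Oat, ornithine aminotransferase, at 16.63 and 15.97, then 10.40 and 11.81 (2.07). Among xenobiotic P450s 12 of 22 were higher and 2 lower (median 0.655). Several Cyp2c genes led them, and near-identical family members may share probes. Cyp2c37 was at 19.03 and 18.45, then 14.30 and 16.85 (3.13). Conjugation and glutathione genes had 10 higher and 3 lower of 19 (median 0.59), and the estrogen sulfotransferase gene Sult1e1 stood apart at 4.47 and 4.49, then 9.52 and 5.17 (-4.37).

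Hepatocyte transcription factors had 8 of 15 responses higher, each by 2-fold, and 1 lower (median 1.15). Onecut1 (HNF6) was at 10.75 and 10.73, then 7.77 and 10.09 (2.34), and the nuclear receptor gene Ppara at 11.81 and 11.11, then 9.95 and 10.78 (1.53). Hnf4a, a master factor of hepatocytes, was not part of this shift, at 12.29 and 13.09, then 11.39 and 11.64 (-0.55). Complement and coagulation proteins, which hepatocytes secrete, had 19 of 25 responses higher and none lower (median 1.22), from -0.99 in wildtype and 0.06 in YAP-KO. Mannose-binding lectin Mbl1 read 12.24 and 12.13, then 10.34 and 12.28 (2.05), F11, coagulation factor XI, 12.38 and 12.24, then 11.66 and 13.47 (1.95), and C9 16.13 and 15.29, then 14.65 and 15.63 (1.82). On all 3 genes the YAP-KO 24 h array was the higher of the 24 h arrays.

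In lipid metabolism the lists went different ways. Cholesterol synthesis had 10 of 16 higher and none lower (median 0.78, from 0.36 in wildtype and 1.165 in YAP-KO): the farnesyl diphosphate synthase gene Fdps was at 12.36 and 13.10, then 12.14 and 14.60 (1.72). De novo lipogenesis had 7 higher and 2 lower of 13 (median 0.66), with fatty acid synthase Fasn at 11.95 and 12.63, then 9.39 and 11.90 (1.83). Lipid droplet genes had 1 higher and 6 lower of 13 (median -0.48), and the droplet coat protein gene Plin2 was at 15.09 and 15.37, then 18.18 and 15.41 (-3.05). PPARA targets had 1 higher and 5 lower of 17 (median -0.21), with the fasting-induced Pdk4 at 7.28 and 7.97, then 11.56 and 7.31 (-4.94). Angptl8, a feeding-induced regulator of lipoprotein lipase, was the larger of the 2 genes that were lower in wildtype and higher in YAP-KO, at 8.37 and 8.67, then 7.26 and 11.71 (4.15). The other was the cystine transporter subunit gene Slc3a1, at 12.56 and 12.61, then 11.31 and 14.22 (2.86). With each array centred on its median this class held 4 genes in place of 2.

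Male-biased genes, whose pattern growth hormone pulses maintain, were lower at 24 h by their list median in both genotypes (-2.32 in wildtype and -1.25 in YAP-KO). Female-biased genes were lower too, by medians of -0.71 and -0.70. Of 15 male-biased genes 8 responses were higher in YAP-KO and none lower (median 0.91, or 1.475 without the 3 saturated genes). Hsd3b5, a steroid dehydrogenase, had the highest difference of responses of the genes eligible for naming, at 14.78 and 14.11, then 6.94 and 11.22 (4.95), and its paralog Hsd3b3 was at 15.20 and 14.57, then 9.40 and 12.62 (3.85). Elovl3, a fatty acid elongase, was a shared lower gene, at 16.47 and 16.31, then 10.21 and 11.42 (1.37). Female-biased genes had 1 higher and 3 lower of 9 (median 0.02), and the growth hormone and IGF axis 2 higher and 5 lower of 11 (median -0.04). In that axis Igfbp1, a stress-induced binding protein, was at 12.31 and 14.92, then 16.53 and 14.65 (-4.49), and the growth hormone receptor gene Ghr at 12.12 and 11.64, then 9.36 and 10.84 (1.96). Circadian clock genes had 3 higher and 4 lower of 17 (median -0.06), and mitochondrial oxidative phosphorylation genes 5 higher and none lower of 38 (median 0.215). Of all genes 13.8% were higher and 16.4% lower, so the higher shares of both lists were near that of all genes.

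**Figure D5:**
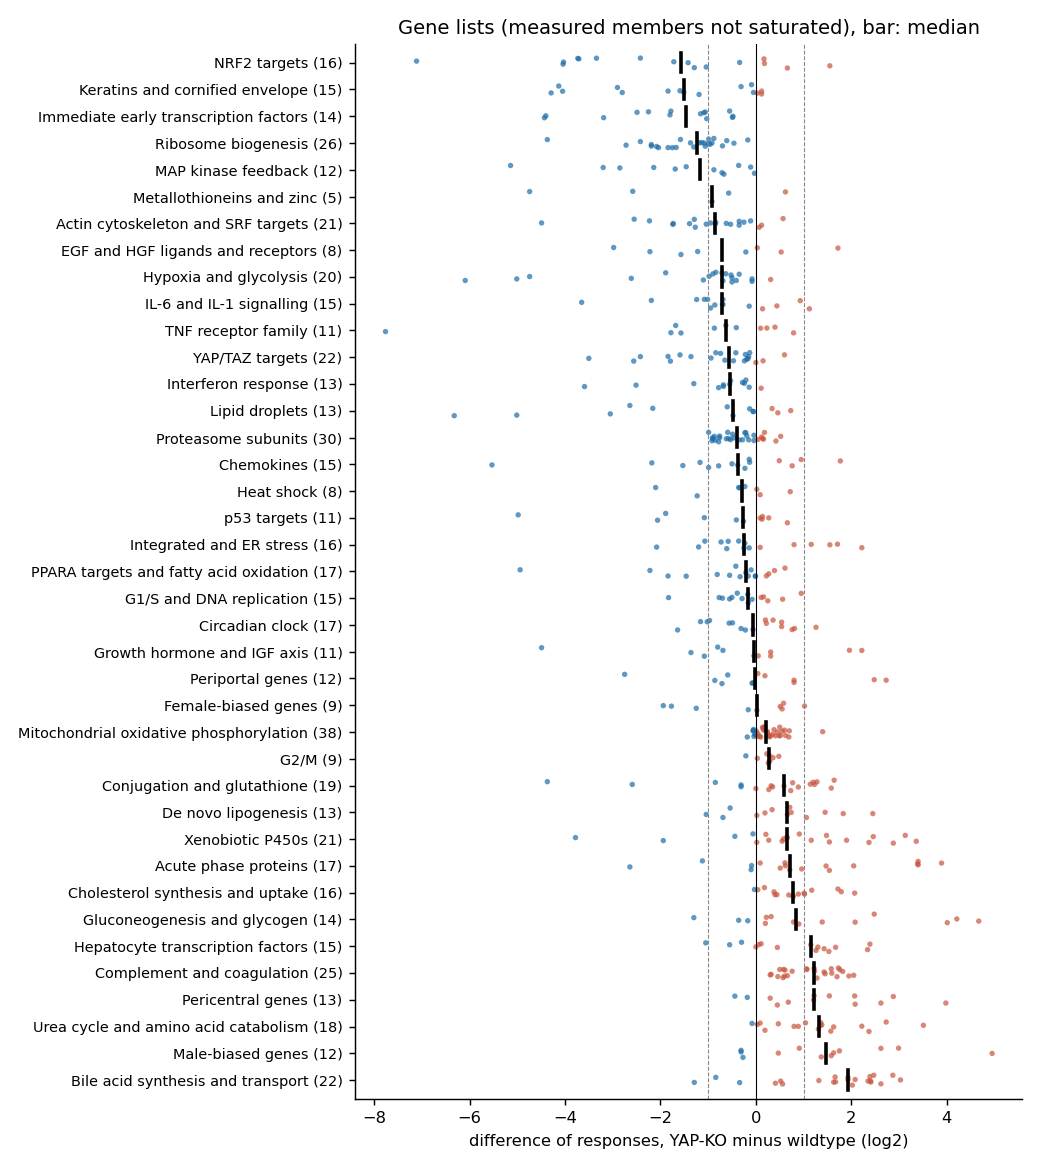
Difference of responses (log2, horizontal axis) of the measured members of 39 gene lists, 1 point per gene, with the list median as a black bar and dashed lines at 2-fold. Genes saturated on any array are left out. The NRF2, keratin and cornified envelope, and immediate early lists sit at the low end. Bile acid, amino acid and male-biased genes sit at the high end, and the medians run from -1.57 to 1.93.

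Acute phase proteins, which hepatocytes secrete under IL-6 and IL-1, had 12 responses higher in YAP-KO and 2 lower of 22 measured (median 0.615, or 0.71 without the 5 saturated genes). Saa2, serum amyloid A, was at 9.17 (wildtype) and 13.48 (YAP-KO), then 8.52 and 16.72, a gap of 4.31 and then 8.20 (3.89). Its near-identical neighbour Saa1, with which it may share probes, was at 10.52 and 14.49, then 9.69 and 17.05 (3.39), and Orm2, orosomucoid, at 13.34 and 13.44, then 13.51 and 17.01 (3.40). These 3 were YAP-KO-only: the wildtype arrays lay within 1 unit of each other. In others the value came from a lower wildtype level at 24 h: Saa4 was at 18.47 and 18.67, then 14.92 and 18.52 (3.40), and C-reactive protein, Crp, at 15.60 and 15.55, then 13.53 and 15.53 (2.05). Apcs, serum amyloid P, was higher at 24 h in both, at 10.81 and 11.24, then 14.15 and 16.05 (1.47). Lcn2, lipocalin 2, was as high in both at 24 h and differed at 0 h, at 5.43 and 8.11, then 11.70 and 11.74 (-2.64), and Serpina3n, a protease inhibitor, was at 16.80 and 19.66, then 18.10 and 19.84 (-1.12), where the YAP-KO values are close to the arrays' highest. Against the mean of both 0 h arrays these last 2 genes had values of 0.04 and 1.74.

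Most genes on the list of receptors and signal carriers of these cytokines had the opposite sign. Of 15 IL-6 and IL-1 signalling genes 10 responses were lower and 2 higher (median -0.70), but the median gap was 0.52 at 0 h and 0.19 at 24 h, so this list differed before the overdose. Il1r1, the IL-1 receptor, read 12.04 and 15.68, then 13.64 and 13.63 (-3.65), and Osmr, the oncostatin M receptor, 6.91 and 8.07, then 9.30 and 8.27 (-2.19). The receptor genes Lifr (1.12) and Il1rap (0.93) went the other way, and Il6st differed little (-0.14). Chemokines had 3 higher and 6 lower of 15 (median -0.38). Cxcl2, a neutrophil attractant, was below the filter level (3.89 to 4.08) on all arrays but wildtype at 24 h (6.24). Only through that array did it pass the filter and come to be counted among the 6 lower chemokines. Ccl9 was at 11.23 and 10.67, then 10.91 and 12.12 (1.77), and the eosinophil attractant Ccl24, a YAP-KO-only gene, at 4.58 and 4.49, then 4.94 and 7.80 (2.95). Interferon response genes had none higher and 6 lower of 13 (median -0.55), with viperin Rsad2 at 7.0 and 7.20, then 10.48 and 7.09 (-3.59).

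Markers of other liver cells are given because in bulk RNA fewer cells of a type and less RNA per cell cannot be told apart. Neutrophil markers had 5 of 8 responses lower and 1 higher (median -1.565), with mean levels of 5.29 and 5.42, then 7.34 and 6.13: S100a8 was at 5.41 and 6.0, then 10.06 and 7.59 (-3.06), whereas Ly6g, the lineage marker, stayed between 5.26 and 5.89. Monocyte and macrophage markers had 3 higher and 3 lower of 12 (median 0.28), with means of 6.26 and 6.08, then 8.21 and 7.88. Cd68 and Chil3 were shared higher genes, Cd68 at 7.16 and 7.13, then 11.49 and 11.47 (0.01), and Chil3 at 4.69 and 4.26, then 9.91 and 9.87 (0.39). The LPS receptor gene Cd14, which hepatocytes also make, was at 5.46 and 5.68, then 10.12 and 6.39 (-3.95). Kupffer cell markers had 2 higher and 6 lower of 9 (median -0.70), with Vsig4 at 10.44 and 10.31, then 12.09 and 10.39 (-1.57). What part cell numbers had in the differences above was not tested.

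Endothelial markers had 2 higher and 2 lower of 10 (median -0.08), although Lyve1 was at 8.06 and 8.80, then 13.57 and 9.69 (-4.62). Stellate cell and fibroblast markers had 3 higher and 4 lower of 12 (median -0.03), and the matrix glycoprotein gene Tnc was equally higher in both genotypes, at 4.83 and 4.88, then 8.94 and 8.88 (-0.11). Biliary and progenitor markers had none higher and 2 lower of 6 (median -0.175, range -1.77 to 0.12). Sox9, which injured hepatocytes also express, was not the lowest of them, at 6.52 and 6.73, then 9.05 and 8.20 (-1.06). Epcam, Krt7, Krt19 and Prom1 stayed at 4.30 to 5.26. The 4 measured lymphocyte markers of 12 lay near the filter level and under 1.5-fold (median 0.16), and of the erythroid list only Alas2 was measured, at 12.10 and 11.70, then 9.86 and 9.84 (0.38). Hepatocyte markers, 4 of 7 saturated, had 3 higher and none lower (median -0.01). For those not saturated the median was 0.80, the value of Cps1. Of the 3 higher genes, Tat was saturated and Cps1 close to the highest value on all arrays but wildtype at 24 h. Their YAP-KO responses thus cannot be read. The other, Tdo2, was at 19.11 and 18.71, then 17.01 and 18.18 (1.57).

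Genes that passed 2-fold in YAP-KO alone were fewer. Of the 336 YAP-KO-only higher genes 160 were higher by 1.5-fold or more in wildtype too, and 169 were under 1.5-fold there. The difference of responses passed 2-fold for 89 of the 336 (26.5%). In the 153 YAP-KO-only lower genes the median gap at 0 h was 0.52, and 35 were 2-fold or more above wildtype before the overdose, which the definition of the class favours. Against the mean of both 0 h arrays this class held 101 genes. Cyp1a1, the inducible enzyme of the aryl hydrocarbon receptor, read 4.47 (wildtype) and 8.41 (YAP-KO), then 4.15 and 4.31 (-3.78), so 3 of the 4 arrays were near the filter level. The centrosomal protein gene Tacc2 read 7.10 and 9.95, then 7.48 and 7.37 (-2.96). Mbd1, which binds methylated DNA, read 10.16 and 11.38, then 9.51 and 9.0 (-1.73), and the stress kinase gene Map3k5 (ASK1) 10.49 and 11.68, then 10.14 and 9.48 (-1.85). For each of these the YAP-KO 0 h array stood above the other 3.

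The 26 genes that were higher at 24 h in wildtype and lower in YAP-KO had a median gap of 1.145 at 0 h and -1.99 at 24 h, and 15 of them were 2-fold or more higher in YAP-KO at 0 h, which this definition favours too. Against the mean of both 0 h arrays the class held 8 genes. Besides Ppl and Gclc they held Cers6, a ceramide synthase, at 7.45 and 9.86, then 10.37 and 8.01 (-4.77), and the retinol dehydrogenase gene Dhrs9 at 5.52 and 7.91, then 7.16 and 5.95 (-3.60). Others began from nearly equal levels: Gpt2, an alanine aminotransferase, was at 12.79 and 12.82, then 14.68 and 11.71 (-3.0), and Txnip, which binds thioredoxin, at 12.17 and 11.75, then 13.22 and 9.63 (-3.17). Gpt2 and Txnip were chosen after their values were seen.

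The genes with equal responses and those with wildtype responses alone also bound the pattern. Sprr1a, a small proline-rich protein of stressed epithelia, was below the filter level at 0 h (2.87 and 3.55) and at 8.77 and 9.40 at 24 h (-0.05), and Mme, the membrane peptidase neprilysin, was at 10.86 and 10.55, then 6.10 and 6.36 (0.57). The 0 h values of Sprr1a are dim, so its responses are at least those seen and their equality cannot be read. Dmbt1, a secreted scavenger receptor, was at 8.37 in wildtype at 0 h and below the filter level on the other 3 arrays (3.95 to 4.22), so its value of 4.38 came from 1 array. Aox3, aldehyde oxidase, was at 16.66 and 15.89, then 12.33 and 15.39 (3.83). Around the threshold, 407 genes lay within 0.1 inside 2-fold and 565 within 0.1 outside: Atp6v0d2 (1.0) and Blcap (-1.0) were just inside, and Atp8b1 (0.99) and Aatf (-0.99) just outside.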

How the data were processed

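The study deposited 1 table of 65956 probe-set values for 4 arrays, each hybridised with biotin-labelled total RNA of 3 pooled livers (GeneChip WT Plus kit, per the labels' protocols). The deposited values are taken as log2 from their range; the log base, summarisation and normalization that the authors applied are not given in the sources used here, and no detection calls were used, so the number of arrays limits the precision.

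The platform annotation gave 31388 probe sets 1 gene, 1362 several and 33206 none, with 851 symbols brought up to date by Entrez identifier (RefSeq, GRCm38.p6). A gene with more than 1 probe set (424 genes) was read from the brightest. Of 30829 genes, the 18500 with a mean of at least 4.3225 (40th percentile) were kept. A gene dim on the other arrays could pass through a single high array, as Ivl, Cxcl2 and Dmbt1 did. Differences were computed with Python 3.11.15, NumPy 2.4.6 and pandas 2.3.3 and drawn with Matplotlib 3.10.9. With 1 array per group there are 0 residual degrees of freedom, so no test was run. The code for the classes was run on simulated arrays in which both genotypes had the same 0 h level and the noise was assumed. This checks the computation alone and says nothing on gaps at 0 h or on the error of these arrays.

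The members, the 48 gene lists and the alternatives were chosen with earlier results of these data known. A list is described by its median and by its members at 1.5-fold (0.585), beside 13.8% higher and 16.4% lower of all genes. Named are Yap1, Wwtr1, Ccn1 and Ccn2, the 10 highest and 10 lowest differences of responses, 4 genes per class and direction, up to 4 members per list with its median and 2 against, and 1 gene on each side of the threshold; predicted, RIKEN, pseudogene, receptor-family, immunoglobulin, T cell receptor and small RNA genes were left out of the ranked names. A few further list members are named for their role. Alternatives were quantile normalization, median centring, other filters, the mean of probe sets, a floor, no saturated genes, 1 baseline for both genotypes and other thresholds.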

Additional observations from a re-analysis of the deposited data

Results flagged for a closer look

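For 11 genes named here the wildtype and YAP-KO responses had opposite signs, each at 2-fold or more. The difference was not tested, since each group is 1 array of 3 pooled livers. Higher at 24 h in wildtype and lower in YAP-KO were Ppl (difference of responses -6.17), the ceramide synthase gene Cers6 (-4.77), the glutathione synthesis gene Gclc (-4.03), the IL-1 receptor gene Il1r1 (-3.65), Dhrs9 (-3.60), Txnip (-3.17), Gpt2 (-3.0), the interferon-induced gene Ifit3 (-2.51) and Xbp1, the splicing-activated factor of the ER stress response (-2.08). Lower at 24 h in wildtype and higher in YAP-KO were Angptl8 (4.15) and Slc3a1 (2.86). Il1r1 was 15.68 in YAP-KO at 0 h against 12.04 in wildtype and level with it at 24 h, and Xbp1 was 13.49 against 11.67 at 0 h and 12.49 against 12.75 at 24 h, so for both the gap lay at 0 h. For Angptl8 and Slc3a1 the gap at 0 h was 0.30 and 0.05.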

How the results depend on the processing

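No paired analysis was possible because each group holds 1 array, all with the replicate number 1, so no block can be fitted and no replicate can be left out. Of 104 alternative values of the 10 gene counts, 77 stayed within 1.5 times the reported count. Median centring gave 4 opposite genes higher in YAP-KO. At 2-fold, quantile normalization gave 1209 differences of responses higher and 1182 lower in YAP-KO, and median centring 954 and 1543. The excess of lower over higher differences thus depended on the scaling.

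With 1.5-fold as the threshold, 2550 differences of responses were higher and 3039 lower in YAP-KO, 1633 genes were shared higher, 601 shared lower, 1562 wildtype-only lower, 816 YAP-KO-only higher, 414 YAP-KO-only lower, and 98 and 53 opposite (higher in wildtype, higher in YAP-KO). With 4-fold the counts were 173 and 281, then 60 shared higher, 39 shared lower, 486 wildtype-only higher, 294 wildtype-only lower, 34 YAP-KO-only higher, 16 YAP-KO-only lower, and 1 and 0 opposite. Requiring under 1.5-fold in the other genotype left 1182 wildtype-only higher, 169 YAP-KO-only higher and 100 YAP-KO-only lower genes.

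The mean of both 0 h arrays as one baseline, which reduces the difference of responses to the gap at 24 h, left 598 genes higher in YAP-KO, 101 YAP-KO-only lower genes, and 8 and 6 opposite genes. It turned the sign of the IL-6 and IL-1 signalling median (0.19), Cyp1a1 (0.16), Serpina3n (1.74), Lcn2 (0.04) and Foxa3 (0.18), the only signs turned by any alternative among list medians past 1.5-fold and genes past 2-fold, and moved 96 of 288 genes by over 1.5-fold. No alternative scaling moved the median of all genes past 0.06 from 0. Genes near the filter level have no known floor, and saturated genes have a bound or no value. The saturation rule misses genes that may be at a plateau below an array's highest value. Mt1, Errfi1, Cps1, F2 and Plg read this way and were counted in their lists. Cps1 was counted as higher among hepatocyte markers, amino acid breakdown and periportal genes.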
